A study of Mus musculus with 6 samples.

Results

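The integrated stress response genes described here are 10 mouse genes of the ATF4 axis: Atf4, Atf5, Ddit3, Trib3, Chac1, Asns, Sesn2, Ddit4, Eif2ak3 and Eif2b2. They were chosen by name, with earlier results of these data known. All 10 were found by gene identifier among the 48353 genes of the deposited files. Reads and RPKM (reads scaled to transcript length and library size) were summed over the transcripts of each gene in each library. Hepatocytes, the parenchymal cells of the liver, came from C57BL/6 mice in which a floxed Bim gene (symbol Bcl2l11) was deleted by Alb-Cre, a Cre recombinase driven by the albumin promoter, and from wild-type mice. Each genotype gave 3 libraries of polyadenylated RNA, made after collagenase perfusion of the liver. The labels speak of male mice on chow, or on a high-fat diet begun at 8 to 10 weeks of age and kept for 14 to 20 weeks, without saying which diet or age belongs to which sample, and whether the wild-type mice carried a Cre or a floxed allele is not stated in the labels. Nothing in the labels ties each library to a separate animal, so the p-values given here reflect variation among libraries that could be technical.

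The integrated stress response lets a cell slow protein synthesis when it is stressed. Kinases that sense unfolded protein, amino acid shortage, haem shortage or double-stranded RNA phosphorylate the initiation factor eIF2, which then holds back its own recycling factor eIF2B. General translation falls while the mRNA of the transcription factor ATF4 is translated more, so ATF4 activity is set in large part at the level of protein and need not follow Atf4 mRNA. ATF4 switches on genes of amino acid synthesis, amino acid import and tRNA charging, together with the regulators CHOP, TRIB3, CHAC1 and the sestrins. In the liver the pathway answers to dietary amino acids, to load on the endoplasmic reticulum and to mitochondrial stress.

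ATF4 binds DNA together with C/EBP proteins at composite elements whose core is written here as TGATGNAA (N is any base). The core was searched on both strands in the 250 bases before the RefSeq start sites of the 10 genes (GRCm38.p6), and it was found at 2 of them, Chac1 and Asns. Over all 27025 genes with such a window, 3.91% held a match. The matches at Chac1 and Asns are shown, each with 10 bases on either side, 5′ to 3′ on the strand of the gene, the core in capitals.

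Chac1, chr2:119351039-119351066, plus strand: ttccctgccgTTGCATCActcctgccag
Asns, chr6:7693215-7693242, minus strand: cccagccacaTGATGAAActtcccgcac

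In Chac1 the core reads on the opposite strand, so the printed capitals are its reverse complement, and it began 193 bases before the RefSeq start. In Asns it lay on the strand of the gene and began 23 bases before the RefSeq start, a site that falls inside the Asns transcript that starts furthest upstream in the deposited files. The wider stretch of Chac1 upstream of the start given in the files (chr2:119350992-119351228, 237 bases, plus strand) is printed for context, with the same capitals: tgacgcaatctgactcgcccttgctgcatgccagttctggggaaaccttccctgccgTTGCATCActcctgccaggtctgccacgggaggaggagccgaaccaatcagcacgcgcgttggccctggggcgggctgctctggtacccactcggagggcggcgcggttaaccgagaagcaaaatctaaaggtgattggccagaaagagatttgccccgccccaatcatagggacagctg. The other 8 genes held no such letters in these windows, which says nothing about sites elsewhere.

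The libraries held 25335211 to 31130519 estimated reads. The targeted gene Bcl2l11 was listed at 0 in the 3 knock-out libraries and had 0, 680 and 478 estimated reads in wild-type replicates 1, 2 and 3. The library labelled wild-type replicate 1 thus read like the knock-out libraries at the targeted gene, which does not bear out its label. It is called wild-type replicate 1 by that label alone, and each direction given between genotypes includes it unless it is said to be left out. A zero can also be a failed estimate, so the zeros do not verify the knock-out labels either. Wild-type replicate 1 stood apart in cell-type markers. The summed level of 10 macrophage markers was 3675.3 RPKM there, with 9 of the 10 above 0, and 67.3 to 110.2 RPKM in the other libraries, with 4 or 5 above 0. The macrophage markers Adgre1, Clec4f, Vsig4 and Ptprc were listed at 0 in all 5 other libraries. Ctss, from the same list, went the other way: it was at 0 in wild-type replicate 1 and read only in knock-out replicate 2 (11.88 RPKM). The summed level of 10 hepatocyte markers, led by Alb, was 19492.0 to 41418.9 RPKM, lowest in wild-type replicate 1 and nearly as low in wild-type replicate 3 (19800.5 RPKM). Apoa1, Ttr, Cps1, Ass1, Apob and Fgb were lowest in wild-type replicate 1. Alb was lowest in wild-type replicate 3 (15024.1 RPKM) and Serpina1a in knock-out replicate 3, while Cyp2e1 was highest in wild-type replicate 1 (403.2 RPKM). Tat, a hepatocyte enzyme, was listed at 0 in all 6 libraries, and so were the 6 stellate markers. Endothelial markers were at 0 except in wild-type replicate 1 (31.5 RPKM summed), where only 2 of the 6, Cdh5 and Stab2, were read. The biliary list summed to 9.09 RPKM in knock-out replicate 1, where Spp1 was at 0, and to 123.5 to 509.9 RPKM in the others, most of it Spp1. Summed interferon genes stood at 4176.1 and 3325.4 RPKM in knock-out replicate 1 and wild-type replicate 2, against 429.1 to 484.1 in the other 4. Irf7 and Oasl2, from the same list, were at 0 in wild-type replicate 2, and Irf7 was highest in knock-out replicate 2 (296.4 RPKM). In these bulk samples fewer cells of a type and less RNA per cell cannot be told apart.

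Of the 10 genes, 5 were read in every library: Atf4, Atf5, Ddit3, Chac1 and Ddit4. The other 5 were listed at exactly 0 in at least 1 library. Zeros differed with the number of annotated transcripts. The 3 genes at loci with 1 annotated transcript (Atf4, Chac1 and Ddit4) had 0 zeros in 18 library values, and the 7 genes at loci with 2 or more transcripts had 10 zeros in 42 values (23.8%). Among all loci with a median above 100 reads the same shares were 0.0156% and 18.0%. Each of the 50 values above 0 was between 380 and 12026 estimated reads, so no member went from a trace to 0. Since an exact zero can stand for a failed estimate, the 5 genes with zeros are described by their value in each library. Any log2 difference given for them holds those zeros unless stated otherwise, so that its size depends on the pseudocount and is no fold change.

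**Figure D1:**
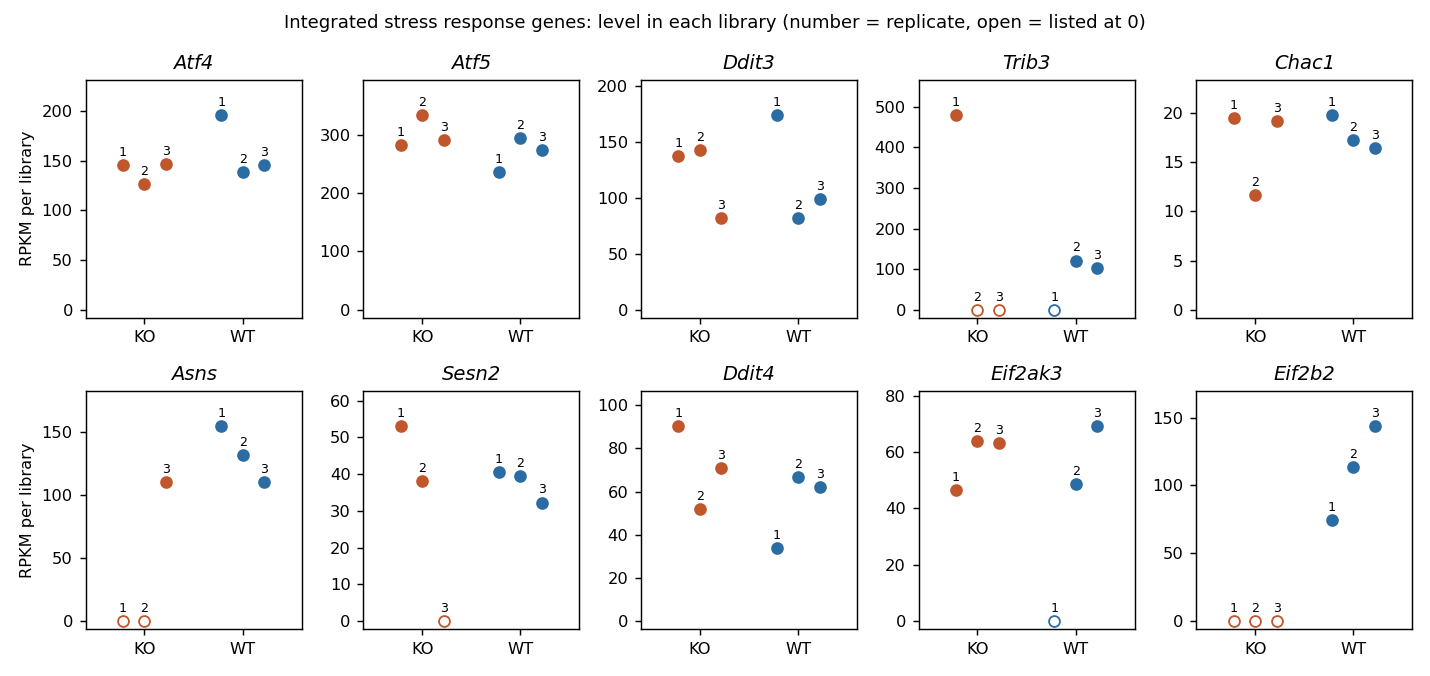
RPKM (y axis, linear, from 0) of each of the 10 genes in every library, knock-out (KO) in orange and wild-type (WT) in blue. Numbers are replicates and open circles are values listed at 0: the 3 knock-out libraries of Eif2b2 are all open, and the open circles of Trib3, Asns, Sesn2 and Eif2ak3 lie in libraries where other members were read.

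Only Eif2b2 passed the test between genotypes over all genes (limma, Benjamini-Hochberg adjusted p below 0.05). That is 1 of the 10 members, all of which passed the filter on low values, beside 0.789% of the 11021 genes tested (0.417% lower and 0.372% higher in knock-out). Its groups were also the only ones among the 10 that did not overlap, beside 5.46% of the genes tested. Eif2b2 was known from earlier results of these data when the members were listed, so neither share is independent evidence about the members. Over the genes above 0 in all 6 libraries the test called 0 of the 5 members and 0 of 5538 genes (0.0%), with 0 and 130 of them at an unadjusted p below 0.05 (2.35%).

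Atf4 encodes the central transcription factor of the response. The gene (ENSMUSG00000042406) spans 80255184 to 80257540 of chromosome 15 (GRCm38, plus strand), with 1 annotated transcript. Atf4 measured 145.4, 126.6 and 146.2 RPKM in knock-out replicates 1 to 3 and 196.2, 138.9 and 145.3 RPKM in wild-type replicates 1 to 3. Wild-type replicate 1 was the highest of the 6, and the other 5 libraries lay close together with the genotypes interleaved. The group means were 139.4 ± 11.1 RPKM (knock-out mean) and 160.1 ± 31.4 RPKM (wild-type mean, SD, n = 3 each; exact two-sided permutation p = 0.6, where the smallest possible is 0.1). On the log2(RPKM + 1) scale, which understates changes of low genes, knock-out minus wild-type was -0.18 (SE 0.17, 95% interval -0.63 to 0.26, limma adjusted p = 0.941). Without wild-type replicate 1, the library with the macrophage markers, the wild-type mean of Atf4 was 142.1 RPKM and the log2 difference -0.03.

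Atf5, a related bZIP factor that ATF4 and CHOP can induce, was the most abundant of the members read everywhere. It lies on the minus strand of chromosome 7 from 44812256 to 44816658, where it overlaps Il4i1 and Nup62 on the other strand. All of its reads were assigned to 1 of its 3 transcripts. Atf5 measured 282.4, 334.2 and 291.4 RPKM in knock-out and 236.7, 294.6 and 274.6 RPKM in wild-type replicates 1 to 3. The order of the libraries was unlike that of Atf4: wild-type replicate 1 was the lowest and knock-out replicate 2 the highest. The means were 302.7 ± 27.7 and 268.7 ± 29.4 RPKM (SD, n = 3 each; exact permutation p = 0.3). The log2 difference was 0.17 (SE 0.13, 95% interval -0.16 to 0.50, limma adjusted p = 0.941). It was 0.09 without wild-type replicate 1 and 0.10 without knock-out replicate 2.

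Ddit3 encodes CHOP, the C/EBP-family factor linked to cell death under lasting stress of the endoplasmic reticulum. The gene lies on the plus strand of chromosome 10 from 127290774 to 127296288, and it overlaps Mars and Gm4189 on the other strand. Ddit3 measured 137.1, 142.7 and 81.9 RPKM in knock-out and 174.1, 81.6 and 99.1 RPKM in wild-type replicates 1 to 3. Each genotype held both high and low libraries, so the groups overlapped over nearly their whole range. The means were 120.5 ± 33.6 and 118.3 ± 49.1 RPKM (SD, n = 3 each; exact permutation p = 0.9), and the log2 difference was 0.06 (95% interval -0.92 to 1.04, limma adjusted p = 1.0). That interval covers a change of about 2-fold in RPKM + 1 either way (0.529 to 2.06). The sign of the Ddit3 difference turned when knock-out replicate 1 or 2, or wild-type replicate 2 or 3, was left out.

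Ddit3 reads were divided over 3 transcripts in every library but knock-out replicate 1, which had 0 on the shortest. The 890-base coding transcript took 1683.5, 1143.4 and 329.7 estimated reads across knock-out libraries, against 860.6, 333.2 and 325.7 across the wild-type ones. A transcript annotated as retaining an intron took 854.5, 428.9 and 691.6 reads across knock-out libraries, against 1231.7, 701.3 and 580.2 across the wild-type ones. In 4 of the libraries (knock-out replicate 3 and the 3 wild-type ones) it thus held more estimated reads than the 890-base form. With the 890-base transcript alone, the one with the most reads over all libraries, the Ddit3 difference was 0.99 on the log2 scale in place of 0.06, and it did not pass the test either (limma adjusted p = 0.888).

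Chac1, which breaks down glutathione, was the lowest of the members read everywhere. It lies on the plus strand of chromosome 2 from 119351229 to 119354381 and has 1 annotated transcript. Chac1 measured 19.5, 11.7 and 19.2 RPKM in knock-out and 19.8, 17.3 and 16.4 RPKM in wild-type replicates 1 to 3. Knock-out replicate 2 was low, and the other 5 libraries fell within a narrow band. The means were 16.8 ± 4.4 and 17.8 ± 1.77 RPKM (SD, n = 3 each; exact permutation p = 0.8), with a log2 difference of -0.11 (SE 0.24, limma adjusted p = 1.0). Leaving out knock-out replicate 2 turned the sign of the Chac1 difference, to 0.11.

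Ddit4 encodes REDD1, a brake on the growth kinase complex mTORC1, and lies on the minus strand of chromosome 10 from 59949675 to 59951770 with 1 annotated transcript. Ddit4 measured 90.3, 51.8 and 71.0 RPKM in knock-out and 33.8, 66.9 and 62.0 RPKM in wild-type replicates 1 to 3. The lowest value was again wild-type replicate 1, the library in which Atf4, Ddit3 and Chac1 were highest. The means were 71.0 ± 19.3 and 54.2 ± 17.8 RPKM (SD, n = 3 each; exact permutation p = 0.4). The log2 difference was 0.41 (SE 0.35, 95% interval -0.51 to 1.32, limma adjusted p = 0.941). Without wild-type replicate 1 the wild-type mean of Ddit4 was 64.4 RPKM and the log2 difference 0.10, the lowest of the 6 fits that each left out a library (0.10 to 0.61). In that library summed macrophage markers were highest (3675.3 RPKM) and summed hepatocyte markers lowest (19492.0 RPKM), though the hepatocyte marker Cyp2e1 was highest there. The part of these markers in the values of Atf4, Ddit3, Atf5 and Ddit4 was not tested.

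By mean RPKM over the 6 libraries the order was Atf5 (285.7 ± 31.6), Atf4 (149.8 ± 23.9), Ddit3 (119.4 ± 37.7), Ddit4 (62.6 ± 19.0) and Chac1 (17.3 ± 3.06; SD, n = 6 libraries). Atf5 lay above Atf4 in every library, and Chac1 below Ddit4. The ranges of Atf4 and Ddit3 overlapped, as did those of Ddit3 and Ddit4. The coefficient of variation over libraries was smallest for Atf5 (11.1%) and largest for Ddit3 and Ddit4 (31.5% and 30.3%).

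Eif2b2 encodes the beta subunit of eIF2B, the exchange factor that phosphorylated eIF2 inhibits. The gene (ENSMUSG00000004788) lies on the plus strand of chromosome 12 from 85219481 to 85226628, with 7 annotated transcripts. Eif2b2 was listed at 0 in the 3 knock-out libraries and measured 74.5, 113.7 and 143.7 RPKM in wild-type replicates 1 to 3 (limma adjusted p = 0.000766). Its estimated reads were nearly equal in wild-type, at 2506, 2328 and 2340. The spread in RPKM came with a different transcript in each library: the reads were assigned to the 1605-base coding transcript in replicate 1, to a 935-base retained-intron transcript in replicate 2 and to a 793-base retained-intron transcript in replicate 3. Genes listed at 0 in all knock-out and above 0 in all wild-type libraries made up 0.508% of those tested. Followed through its most-read transcript alone, which had reads in wild-type replicate 1 only, Eif2b2 was not called (limma adjusted p = 0.888). That fit set wild-type replicates 2 and 3 to 0, so it could not test the call. With zeros at loci of several transcripts taken as missing, Eif2b2 had no knock-out value to compare. This gene was known from earlier results on these files when the members were listed, so its call is no independent evidence. The 3 zeros are no evidence by themselves that knock-out hepatocytes lacked the transcript.

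The other eIF2B subunits were also read in some libraries only. Eif2b1 had 1322 reads in knock-out replicate 2 and was listed at 0 elsewhere. Eif2b4 had 934, 0 and 912 reads across knock-out libraries, against 0, 858 and 0 across the wild-type ones. Eif2b3 and Eif2b5, named after their values were seen, were at 0 in 3 and 2 libraries. Thus all 5 genes of the eIF2B complex had zeros in these files, while the 3 genes of eIF2 itself (Eif2s1, Eif2s2 and Eif2s3x) were read everywhere. Over all 11021 genes tested, 5538 were above 0 in every library. The eIF2B loci had 2 to 12 annotated transcripts, and those of Eif2s1, Eif2s2 and Eif2s3x had 1, 5 and 3. The contrast is a description only, and the part of transcript number in it was not tested.

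**Figure D2:**
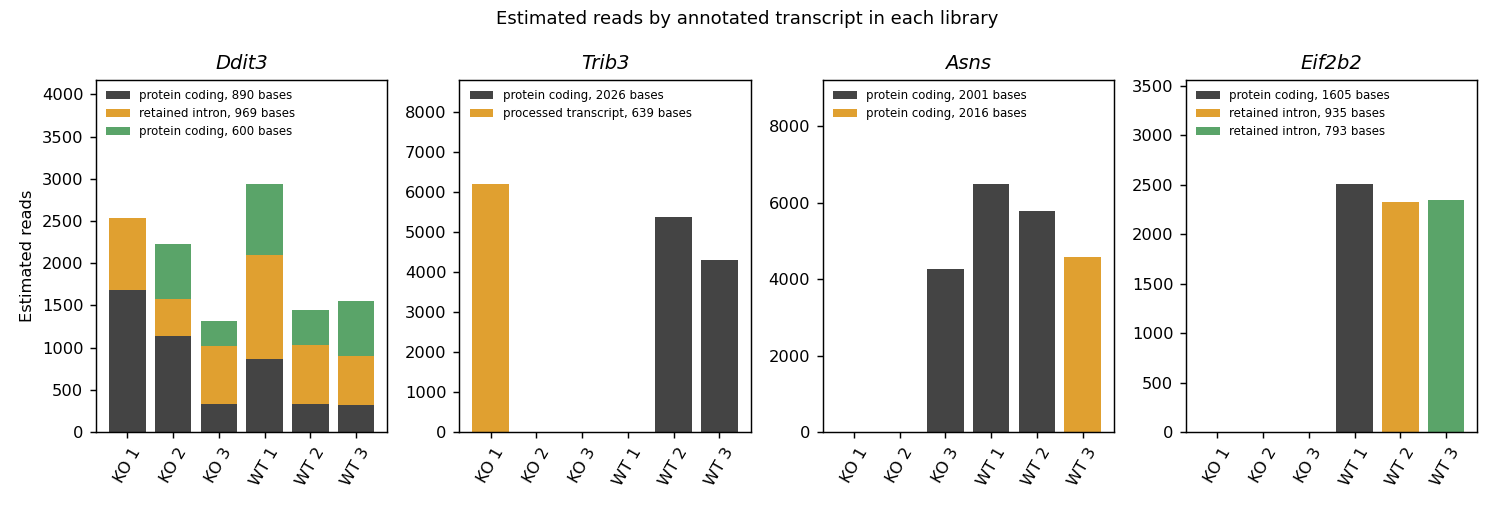
Estimated reads (y axis, from 0) of Ddit3, Trib3, Asns and Eif2b2 in each library, stacked by annotated transcript with its class and length. Ddit3 reads are split over transcripts within a library, whereas each bar of Trib3, Asns and Eif2b2 is 1 transcript: a different one in each of the 3 wild-type libraries for Eif2b2, the same one in knock-out replicate 3 and wild-type replicates 1 and 2 for Asns, and the same one in wild-type replicates 2 and 3 for Trib3.

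Eif2ak3 encodes PERK, the eIF2 kinase of the endoplasmic reticulum, on the plus strand of chromosome 6 from 70844515 to 70905245, where it overlaps Gm43292 on the other strand. It measured 46.6, 64.0 and 63.1 RPKM in knock-out and 0, 48.7 and 69.2 RPKM in wild-type replicates 1 to 3. Outside the zero in wild-type replicate 1, the genotypes covered the same range. All Eif2ak3 reads (2476 to 3732 in the 5 libraries) were assigned to a 2625-base retained-intron transcript of 11 exons, and none (0) to the 4513-base coding transcript of 17 exons. The RPKM of Eif2ak3 are therefore on the length of the former. The limma adjusted p was 0.941, and without wild-type replicate 1 the log2 difference was -0.02.

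Trib3 encodes a pseudokinase that binds ATF4 and CHOP and restrains insulin signalling through AKT. The gene lies on the minus strand of chromosome 2 from 152337422 to 152344032. Trib3 measured 480.0, 0 and 0 RPKM in knock-out and 0, 121.3 and 103.2 RPKM in wild-type replicates 1 to 3. The highest value stood in knock-out replicate 1 by a wide margin, yet in estimated reads that library (6206) was close to wild-type replicates 2 and 3 (5382 and 4294). Its reads had been assigned to a 639-base processed transcript and those of wild-type to the 2026-base coding transcript. Among the libraries with reads the range of Trib3 was thus 4.65-fold in RPKM and 1.45-fold in reads. The genotypes did not differ by the test (limma adjusted p = 1.0).

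Asns, asparagine synthetase, is a standard readout of amino acid shortage. The gene lies on the minus strand of chromosome 6 from 7675169 to 7693254, with 7 annotated transcripts. Asns was listed at 0 in knock-out replicates 1 and 2, and measured 110.7 RPKM in knock-out replicate 3 and 154.9, 132.0 and 110.6 RPKM in wild-type replicates 1 to 3. The single knock-out library with a value lay just above wild-type replicate 3, so the groups overlapped. The limma adjusted p was 0.941. Without knock-out replicate 3, which leaves only zeros in knock-out, Asns passed the test (adjusted p = 0.00288).

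Sesn2, sestrin 2, senses leucine upstream of mTORC1. The gene lies on the minus strand of chromosome 4 from 132492032 to 132510501 and shares its locus with the model Gm12981. Sesn2 measured 53.0, 38.0 and 0 RPKM in knock-out and 40.6, 39.6 and 32.3 RPKM in wild-type replicates 1 to 3. Knock-out replicate 1 was the highest and the zero was in knock-out replicate 3. The genotypes did not differ by the test (limma adjusted p = 0.943), and without that library the log2 difference was 0.26, in place of a negative value.

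The zeros of the 5 genes did not fall in the same libraries. Knock-out replicate 1 lacked Asns and Eif2b2, knock-out replicate 2 lacked Trib3, Asns and Eif2b2, knock-out replicate 3 lacked Trib3, Sesn2 and Eif2b2, and wild-type replicate 1 lacked Trib3 and Eif2ak3. Wild-type replicates 2 and 3 had values for all 10 genes. Where they were read, the 5 genes varied by 1.08-fold (Eif2b2) to 1.62-fold (Sesn2) in estimated reads, beside 1.34-fold (Atf5) to 2.58-fold (Ddit4) for the 5 genes read everywhere. These are highest over lowest reads, not scaled to depth. They rest on fewer libraries for the genes with zeros, so they do not show that those genes were steadier.

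A wider list of 60 pathway genes in 8 roles was described with the same fit. Of these, 57 passed the filter on low values, and none (0) passed the limma test over all genes in either direction. At an unadjusted p below 0.05 there was 1 (Ppp1cb), and 3 in the fit of genes above 0. Without knock-out replicate 1, Eif2ak4 and Ppp1cc passed (2 calls), and without knock-out replicate 3, Cars did (1 call). In these fits each of the 3 genes had all libraries of a genotype listed at 0. Among the 29 tested genes above 0 in all 6 libraries, 20 had a negative and 9 a positive difference, with a median of -0.06 on the log2 scale. Over all 5538 such genes 49.8% were negative and the median was 0.0013. Groups did not overlap for 4 of the 29, beside 5.94% over all genes, and for 0 of the 5 members. In that fit of genes above 0 the 95% interval lay between a halving and a doubling of RPKM + 1 for 24 of the 29, for 4 of the 5 members and for 4354 of the 5538 genes (78.6%). In the fit of all genes past the filter, whose intervals are printed above, this held for 3 of the 5 members, with Ddit3 and Ddit4 outside it.

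**Figure D3:**
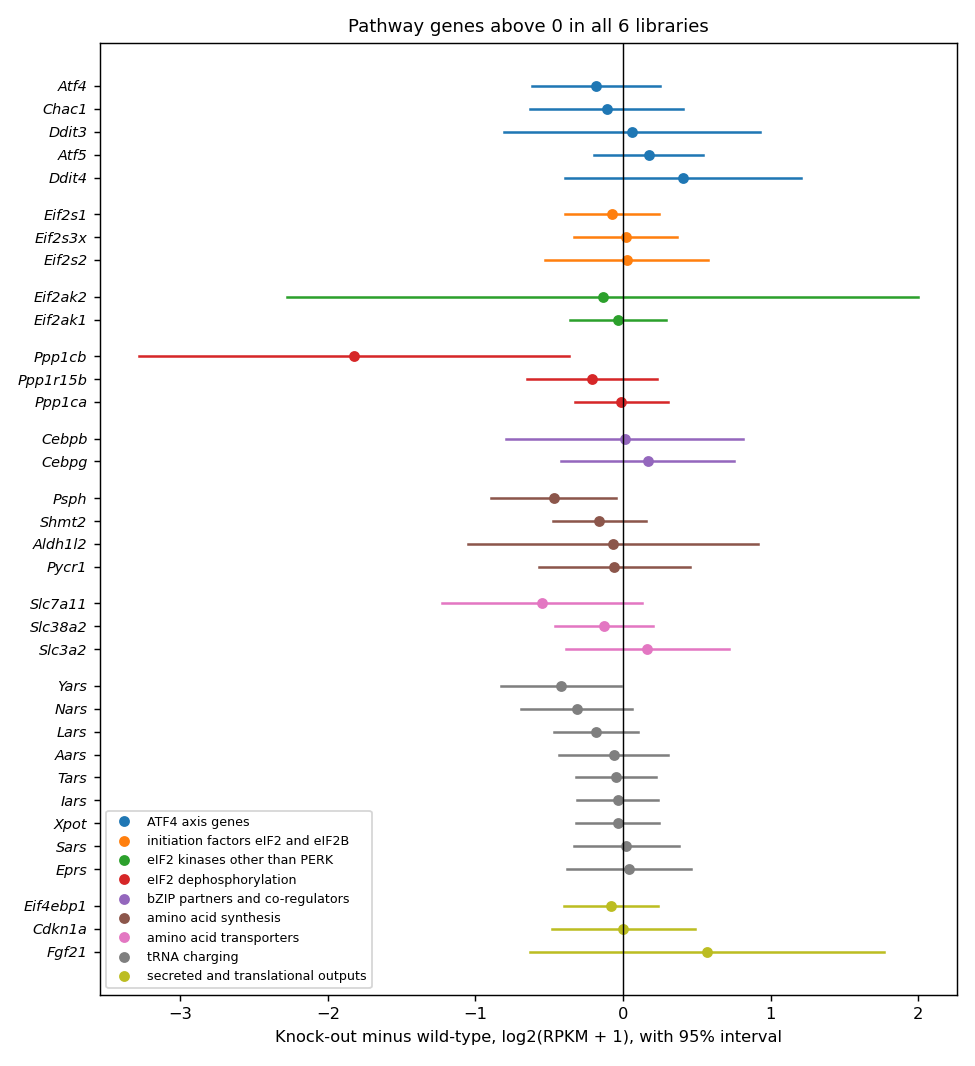
Knock-out minus wild-type difference on the log2(RPKM + 1) scale (x axis) with its 95% interval from the limma fit of genes above 0, for the 5 ATF4 axis genes and the 29 wider pathway genes above 0 in all 6 libraries, coloured by role. Most intervals cross 0 and the median of the 29 is -0.06; Ppp1cb and Psph lie furthest from 0 among those whose interval does not cross it, and neither passed after adjustment.

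Among regulators of eIF2 phosphorylation, Ppp1cb, a catalytic subunit of the phosphatase that reverses it, measured 281.0, 57.4 and 88.3 RPKM in knock-out and 497.9, 294.9 and 440.1 RPKM in wild-type replicates 1 to 3. Its groups did not overlap, and its limma adjusted p was 0.941 (0.996 among genes above 0). The estimated reads of Ppp1cb lay closer together, with 7486, 6786 and 7238 across knock-out and 8982, 7696 and 7780 across wild-type libraries. These reads are not scaled to depth, which was lowest in knock-out replicate 3 and highest in wild-type replicate 2. Their order by genotype is thus not a difference in level. Ppp1cc, another catalytic subunit, had 3409 and 3679 reads in knock-out replicates 2 and 3 and was listed at 0 in the other 4 libraries. Eif2ak4, which encodes the amino acid sensor GCN2, had 1042, 0 and 0 reads across knock-out libraries, against 1148, 1082 and 1198 across the wild-type ones. Eif2ak1, the haem-regulated kinase, measured 28.6 ± 1.35 RPKM (knock-out mean) and 29.5 ± 3.98 RPKM (wild-type mean, SD, n = 3 each).

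Eif2ak2 encodes PKR, the interferon-inducible kinase that senses double-stranded RNA, and was named after its values were seen. It had 9478, 2892 and 3682 estimated reads across knock-out replicates, against 3092, 9804 and 4818 across wild-type replicates 1 to 3. The highest values were in knock-out replicate 1 and wild-type replicate 2, the libraries in which the summed interferon genes were also highest. Its RPKM followed another order (108.6, 33.8 and 227.1 in knock-out, 43.8, 103.8 and 245.7 in wild-type), since the length of the assigned transcript enters.

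Amino acid genes are the best known output of ATF4. Psph, the last enzyme of serine synthesis, measured 31.5, 23.0 and 29.7 RPKM in knock-out and 42.7, 42.1 and 32.9 RPKM in wild-type. All 3 knock-out libraries lay below all 3 wild-type ones, with a log2 difference of -0.47 (SE 0.17) and an unadjusted limma p of 0.0352 in the fit of genes above 0 and 0.0571 in that of all genes past the filter. Neither passed after adjustment (limma adjusted p = 0.996 and 0.941). Cth, which makes cysteine, had 4686, 2896 and 4134 reads across knock-out libraries, against 3890, 0 and 659 across the wild-type ones. In RPKM all knock-out libraries of Cth lay above all wild-type ones (127.6, 186.8 and 315.4 against 102.3, 0 and 17.7). Groups did not overlap for 5.46% of the genes tested, and Cth did not pass the test (limma adjusted p = 0.941). All 4 synthesis genes read everywhere (Psph, Shmt2, Pycr1 and Aldh1l2) had negative differences, beside 49.8% of all genes read everywhere. Those of Pycr1 (-0.06, SE 0.21) and Aldh1l2 (-0.07, SE 0.40) were smaller than their SE, so their signs carry little weight. The other 8 of the 12 had zeros.

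The cystine transporter Slc7a11 measured 50.6, 54.0 and 87.4 RPKM in knock-out and 116.0, 91.2 and 72.2 RPKM in wild-type, with overlapping groups and a log2 difference of -0.55 (SE 0.28, limma adjusted p = 0.996 among genes above 0). The glycine transporter Slc6a9 had 0, 3104 and 2588 reads across knock-out libraries, against 2180, 4756 and 2460 across the wild-type ones. Among 13 genes of tRNA charging, 9 were read everywhere and 7 of those had negative differences, beside 49.8% of all genes read everywhere. The median difference of the 9 was small, at -0.05 on the log2 scale. Yars, the tyrosine enzyme, measured 45.0 ± 8.74 RPKM (knock-out mean) and 59.9 ± 4.32 RPKM (wild-type mean), and Nars, the asparagine enzyme, 185.7 ± 20.6 and 231.3 ± 25.9 (SD, n = 3 each). Groups did not overlap for either gene, and the limma adjusted p of both was 0.941.

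Of the partners and outputs, Cebpg, a dimer partner of ATF4, measured 49.6 ± 16.6 RPKM (knock-out mean) and 42.8 ± 4.05 RPKM (wild-type mean, SD, n = 3 each; limma adjusted p = 0.953). Nupr1, a stress-induced chromatin protein, had 1290, 1440 and 674 reads across knock-out libraries, against 0, 1930 and 756 across the wild-type ones. Gdf15, a stress hormone, had 1662, 0 and 0 reads across knock-out libraries, against 5192, 1356 and 1190 across the wild-type ones, with the highest value in wild-type replicate 1. Herpud1, of protein disposal at the endoplasmic reticulum, was listed at 0 in that library and had 3786 to 8022 reads in the other 5.

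Wild-type replicate 1 was the library in which pathway genes most often peaked. It held the highest RPKM for 3 of the 5 members read everywhere (Atf4, Ddit3 and Chac1) and for 14 of the 29 wider genes (48.3%), beside 29.7% of all 5538 genes. The same library held the lowest RPKM for the other 2 of the 5 (Atf5 and Ddit4). It was lowest for 1 of the 29 (3.45%), beside 21.8% of all genes. Knock-out replicate 2 held the lowest RPKM for 2 of the 5 (Atf4 and Chac1) and for 16 of the 29 (55.2%), beside 18.7% of all genes. In reads scaled to the library total, which do not depend on transcript length, the shares of the 29 were 69.0% highest in wild-type replicate 1 (all genes 33.1%) and 48.3% lowest in knock-out replicate 2 (all genes 18.3%). Summed macrophage markers were highest in the former (3675.3 RPKM) and lowest in the latter (67.3 RPKM). Their part in this pattern was not tested.

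**Figure D4:**
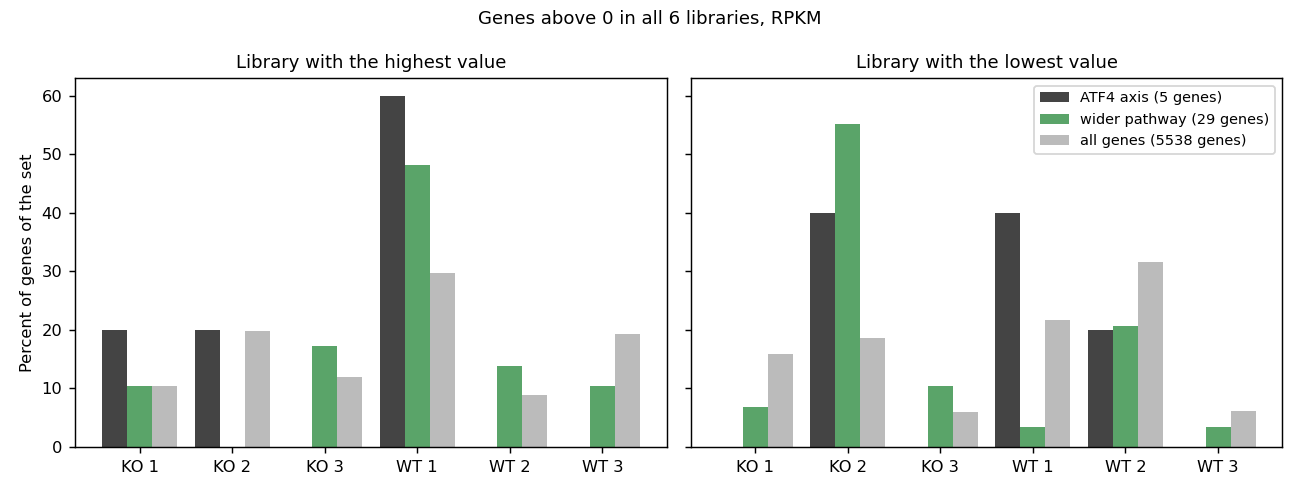
Percent of genes (y axis, from 0) whose highest (left) or lowest (right) RPKM fell in each library, for the 5 ATF4 axis genes, the 29 wider pathway genes and all 5538 genes above 0 in all 6 libraries. The wider genes peak in wild-type replicate 1 (48.3%) and are lowest in knock-out replicate 2 (55.2%), beside 29.7% and 18.7% of all genes.

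The gene with the most similar course over the 6 libraries was sought for each member read everywhere, as the smallest root mean square distance between mean-centred log2(RPKM + 1) values among 4156 named genes. These were Glce for Atf4 (distance 0.04), Bzw1 for Atf5 (0.02), Dvl2 for Ddit3 (0.15), Slc16a6 for Chac1 (0.07) and Rhob for Ddit4 (0.14). Rhob measured 144.0, 93.6 and 99.9 RPKM in knock-out and 47.5, 93.5 and 98.8 RPKM in wild-type, with its lowest value in wild-type replicate 1 as for Ddit4. Glce measured 31.8, 28.1 and 32.2 RPKM in knock-out and 43.5, 28.5 and 30.5 RPKM in wild-type, with its highest value in that library as for Atf4. With 6 libraries such likeness is a description only.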

How the data were processed

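The submitters' processing notes name TopHat2 (version 2) and the build GRCm38 (mm10). The sources used here do not give the tool that divided reads among transcripts, nor its use of strand. Each deposited file lists, for 118492 transcripts, the authors' estimated count of reads and their RPKM. All 60 member totals (10 of them 0) were even whole numbers (within 0.001), and whether 1 estimated read stands for 1 sequenced read was not settled from the files. Depth in RPKM units was 19245556 to 21899881 reads per library, and the files do not allow counting intervals per gene.

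Symbols were matched through Ensembl identifiers (47993 of 48353 genes matched), and transcript classes from GENCODE M21, which is on the same build. RPKM were summed per gene. The 11021 genes whose mean reached 1 RPKM were tested on log2(RPKM + 1) with limma 3.58.1 in R 4.3.3 (trend, two-sided, Benjamini-Hochberg over all tested genes), knock-out against wild-type over 6 libraries without covariates. The fit was tested on simulated data modelled on the genes above 0 in all 6 libraries, with a common spread. Those data held no failed estimates, so that test does not cover calls that rest on zeros, such as that of Eif2b2. Because the values are estimates held as text, no test made for counts was used. Members, lists and markers were chosen with earlier results of these data known. Named were all members, wider genes past the test, up to 2 per role with the smallest p, and 1 nearest gene per member. Alternatives covered pseudocount, filter, scaling, transcript choice, zeros, variance trend, threshold, replicate block and left-out libraries. A fit without the 2 interferon-high libraries was chosen after seeing the data. Python 3.11.15, pandas 2.3.3, numpy 2.4.6, scipy 1.17.1 and matplotlib 3.10.9 were used.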

Additional observations from a re-analysis of the deposited data

How the results depend on the processing

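Of the 10 members, 1 (Eif2b2) was called in the test as described. The number was 0 with genes above 0 in all 6 libraries, 0 with zeros at loci of several transcripts as missing, 0 with the most-read transcript alone and 0 with the replicate block, and it ranged from 1 to 2 when each library was left out in turn (Asns was added without knock-out replicate 3). The fits of genes above 0 and with zeros as missing left Eif2b2 out because of its knock-out zeros. With the most-read transcript alone it kept reads in wild-type replicate 1 only. Those fits therefore could not test its call. The wider list had 0 calls and ranged from 0 to 2 over the left-out libraries: Eif2ak4 and Ppp1cc were called without knock-out replicate 1, and Cars without knock-out replicate 3. Without both libraries high in interferon genes 1 wider gene, Eif2ak4, was called. Over all genes the 87 calls became 0 with genes above 0, 0 with zeros as missing, 0 with the replicate block, 298 without the interferon-high libraries and 171 to 198 without each library. Same-numbered libraries did not deviate together (r = -0.16, -0.05 and -0.0053 for replicates 1, 2 and 3 over 5538 genes), and each correlated better with another number, so the numbers were not taken as pairs and the block calls say nothing of effect size.

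Differences that changed sign, none of them called, were those of Chac1 without knock-out replicate 2 (0.11), of Ddit3 without knock-out replicate 1 (-0.05) or 2 (-0.08), wild-type replicate 2 (-0.17) or 3 (-0.03) or the interferon-high libraries (-0.28), of Eif2ak3 without wild-type replicate 1 (-0.0188) or with zeros as missing (-0.0188), of Sesn2 without knock-out replicate 3 (0.26) or with zeros as missing (0.26), and of Trib3 with zeros as missing (2.09). For Eif2ak3, Sesn2 and Trib3 the alternative removes the zeros that set the sign. The Trib3 value then compares 1 knock-out with 2 wild-type libraries whose reads were assigned to transcripts of 639 and 2026 bases, and is no estimate of a genotype difference. Over the fits that each leave out 1 library the log2 difference ranged from -0.23 to 0.11 for Chac1, -0.17 to 0.38 for Ddit3, -0.0188 to 3.05 for Eif2ak3 and -2.62 to 0.26 for Sesn2, where values of Eif2ak3 and Sesn2 that hold zeros depend on the pseudocount. It ranged from -0.28 to -0.03 for Atf4, 0.09 to 0.24 for Atf5 and 0.10 to 0.61 for Ddit4. With the most-read transcript alone Ddit3 was 0.99 (adjusted p = 0.888). With 3 libraries a group the smallest exact p is 0.1.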
